A study of Mus musculus with 12 samples.

Results

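The Ets family is a group of transcription factors that share a DNA-binding domain, the Ets domain, which recognises a GGAA core in DNA. This account covers 10 of its genes, Fli1, Ets1, Ets2, Elf1, Elf2, Elf4, Elk3, Elk4, Etv3 and Gabpa, taken by symbol from a table of 11581 genes measured in resting mouse CD8 T cells. All 10 had a row. They were listed by name, with no threshold on any value.

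Ets factors act through neighbouring proteins. Ets1 binds DNA together with Runx factors, and Gabpa acts in a complex with a Gabpb subunit. Elk3 and Elk4 sit beside serum response factor on its target genes and respond to the ERK kinases. In mouse T cells Ets1 supports survival and the naive state, Fli1 restrains effector differentiation of CD8 T cells, and Elf4 restrains their proliferation. Gabpa is also known, as part of NRF-2, from promoters of nuclear genes for mitochondrial proteins.

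The series holds 12 samples in 4 groups of 3 libraries, scurfy or wild type at Foxp3, left unstimulated or given SIINFEKL peptide for 6 h, and only the 6 unstimulated libraries were analysed here. Recipients were CD45.2+ C57BL/6 J mice, sampled 2 months after reconstitution with mixed bone marrow. One donor was OT-1 CD45.1+/2+ and either Foxp3Scurfy (scurfy group) or Foxp3wt (wild-type group), and the other donor was CD45.2+ in both groups. OT-1 is a transgenic T cell receptor for that peptide of ovalbumin, and scurfy is a loss-of-function allele of Foxp3, the lineage factor of regulatory T cells. The labels do not say whether the OT-1 cells were separated from CD8 T cells of the second donor. They do not tie libraries to individual mice either, so a p-value here reflects only how far these samples scatter, which may be technical.

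The libraries held 8852518 to 23149523 reads over the table. Foxp3 has no row, so the genotype was not checked on its own transcript. All 8 markers of CD8 T cells had a row. Their summed level was 73275 to 79148 normalized counts per scurfy library and 66873 to 68611 per wild-type library, without overlap. The 8 did not move together, and 2 had negative log2 fold changes. Cd3d was at 11635 in scurfy and 6837 in wild type, while Cd8b1 was at 21566 and 21498. None of 3 CD4 T cell markers had a row. Across all genes, limma called 518 (4.47%) at an adjusted p under 0.05, 272 of them lower (2.35%) and 246 higher (2.12%) in scurfy.

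RefSeq promoter windows on GRCm38.p6, from 250 bases before to 50 after a transcript start, were found for 8 of the 10 genes in 13 windows. Fli1 and Ets1 had no entry. The windows were searched on both strands for CCGGAA, an Ets core with its preferred flank. It occurred in 2 windows of 13, belonging to Gabpa and to Elk4, against 14.9% of 32851 windows of all genes. Counted by gene, 2 of the 8 had it, against 35.0% of the 7915 genes of the expression table that matched a window. The 2 windows are shown because they hold the core. The first window of Elf1 is shown because Elf1 is the gene with an entry that passed the test below. Capitals mark CCGGAA or its reverse complement TTCCGG.
Gabpa promoter (chr16:84834874-84835173, plus strand): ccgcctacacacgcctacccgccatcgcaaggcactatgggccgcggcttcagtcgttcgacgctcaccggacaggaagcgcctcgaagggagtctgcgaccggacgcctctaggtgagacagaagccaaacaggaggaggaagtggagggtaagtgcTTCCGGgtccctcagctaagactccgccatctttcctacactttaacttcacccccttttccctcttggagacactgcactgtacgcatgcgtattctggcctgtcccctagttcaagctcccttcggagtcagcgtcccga
Elk4 promoter, first window (chr1:132007370-132007669, plus strand): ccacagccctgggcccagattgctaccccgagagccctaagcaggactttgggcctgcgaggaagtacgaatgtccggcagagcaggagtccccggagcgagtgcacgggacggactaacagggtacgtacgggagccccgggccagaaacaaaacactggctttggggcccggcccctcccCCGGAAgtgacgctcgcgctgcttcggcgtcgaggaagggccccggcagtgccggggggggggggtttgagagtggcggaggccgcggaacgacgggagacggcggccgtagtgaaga
Elf1 promoter, first window (chr14:79480944-79481243, plus strand): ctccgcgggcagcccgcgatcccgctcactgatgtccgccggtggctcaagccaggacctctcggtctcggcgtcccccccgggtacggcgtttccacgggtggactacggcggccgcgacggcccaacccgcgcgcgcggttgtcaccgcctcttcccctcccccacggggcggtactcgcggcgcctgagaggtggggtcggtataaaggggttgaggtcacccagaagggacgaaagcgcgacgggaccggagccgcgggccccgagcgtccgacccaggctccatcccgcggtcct

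The shorter letters GGAA, which the longer core contains, were in 96.0% of all windows and in every window of the 8 genes. CCGGAAG, the core with 1 more base, was in 8.86% of all windows and in the same 2 windows of Gabpa and Elk4. Neither gene with the core passed the test, and Elf1, without it, did.

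Fli1, Ets1 and Elf1 fell in scurfy cells, and the other 7 genes did not pass. Fli1 fell most, to 41.3% of its wild-type mean, Ets1 to 62.9% and Elf1 to 74.2%. None of the 10 rose. That is 3 of 10 lower, where 2.35% of all genes were lower, but these genes were listed with earlier results of the same libraries known, so the count is a description. The same 3 were lower with edgeR (2.69% of all genes), with DESeq2 (4.76%) and in the authors' deposited table (4.76%), and Elf2 joined them when libraries were scaled by library size alone (6.57%). The median log2 fold change of the 10 was -0.24, against 0.01 over all genes, and 7 of the 10 were negative. Bulk RNA cannot separate less RNA per cell from fewer cells of a type.

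**Figure D1:**
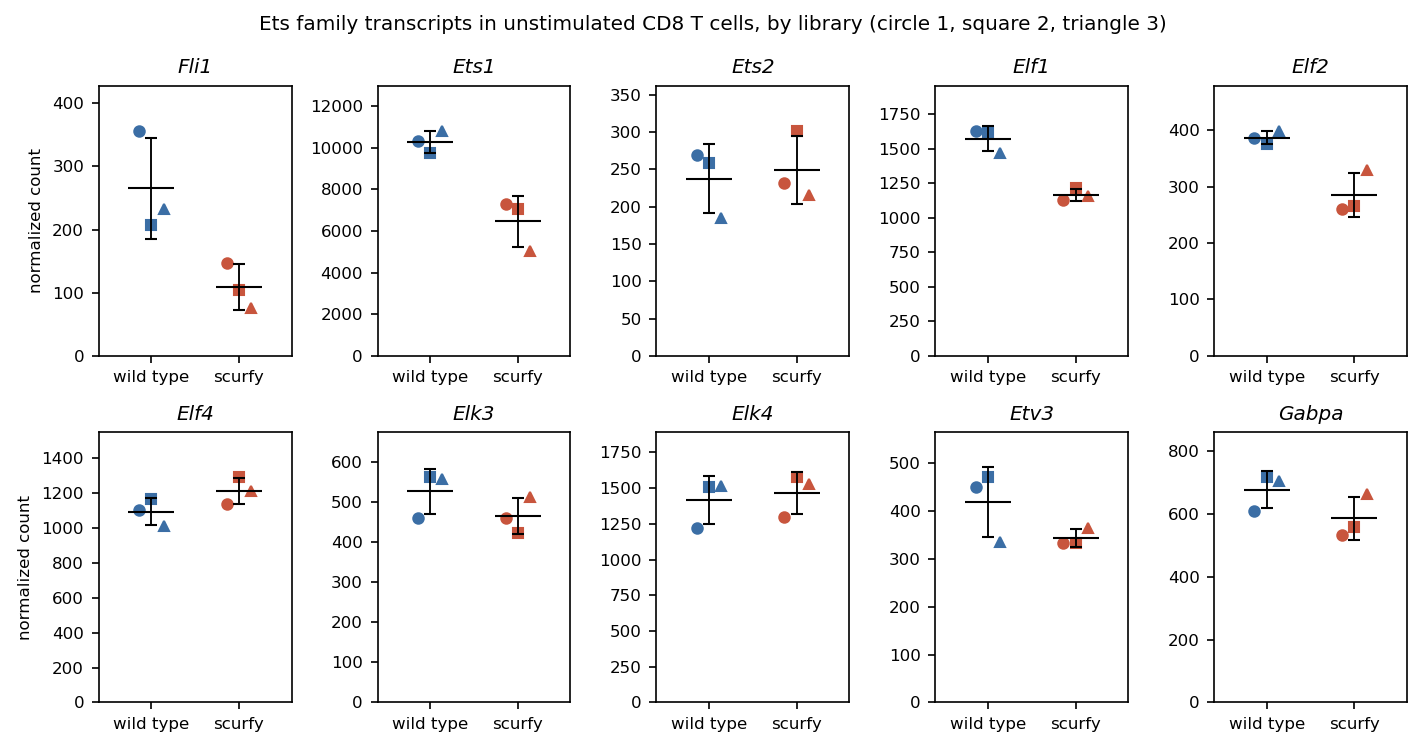
Normalized counts (y axis, linear from 0) of each Ets gene in the 3 wild-type and 3 scurfy libraries, 1 point per library, with mean and SD as bars. Points of the groups do not overlap for Fli1, Ets1, Elf1 and Elf2, and overlap for the other 6.

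Fli1 (ENSMUSG00000016087, chromosome 9) is best known from blood and endothelial development. Scurfy libraries 1 to 3 held 148, 105 and 75.7 normalized counts of it, and wild-type libraries 1 to 3 held 356, 207 and 232. Every scurfy library lay below every wild-type library, with scurfy 3 lowest and wild-type 1 highest. The means were 109 ± 36.2 and 265 ± 79.9 (SD, n = 3 each), from 64 to 428 reads per library. The log2 fold change was -1.28 (SE 0.27, 95% interval -1.86 to -0.70, limma adjusted p = 0.0190).

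The Fli1 call ended when 1 of 4 libraries was left out. Its limma adjusted p was 0.0536 without scurfy 2, 0.0535 without scurfy 3, 0.0727 without wild-type 1 and 0.0561 without wild-type 3, with log2 fold changes between -1.52 and -1.04 over the 6 refits. In the authors' deposited table Fli1 was at -1.27 with an adjusted p of 0.000457.

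Ets1 (ENSMUSG00000032035) is the family's most abundant member here. It lies beside Fli1 on chromosome 9, with 2 annotated genes between them, neither protein-coding. Ets1 had 7305, 7052 and 5051 normalized counts in scurfy libraries 1 to 3, against 10308, 9749.6 and 10808 for wild type. The groups did not overlap, and scurfy 3 was again the lowest. Means were 6469 ± 1235 and 10289 ± 529.6 (SD, n = 3 each), and the log2 fold change was -0.69 (SE 0.13, limma adjusted p = 0.0139). Without wild-type 3 the adjusted p was 0.0548, while the value stayed between -0.78 and -0.52 over the 6 refits. The authors' deposited table gives -0.67 with an adjusted p of 0.000140.

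Elf1 (ENSMUSG00000036461, chromosome 14) activates genes of T cell receptor signalling and of the interleukin-2 receptor. It measured 1129, 1214 and 1156 normalized counts in the scurfy group and 1627, 1620.1 and 1465 in the wild-type group. The spread within each group was small beside the gap between them. Means of 1166 ± 43.8 and 1571 ± 91.4 (SD, n = 3 each) gave a log2 fold change of -0.43 (SE 0.11, limma adjusted p = 0.0351). Leaving out any 1 of the 6 libraries ended this call, with adjusted p from 0.0656 to 0.115 and log2 fold changes from -0.48 to -0.40. In the authors' deposited table the adjusted p was 0.00860.

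Elf2, a close relative of Elf1, did not pass although its groups did not overlap. Its 260.3, 265 and 329.8 normalized counts in the scurfy group faced 385, 376 and 399 in the other, with scurfy 3 the nearest to wild type. The log2 fold change was -0.45 (95% interval -0.79 to -0.11, limma adjusted p = 0.119). In all, 4 of the 10 genes had every scurfy value below every wild-type value, against 13.7% of all genes, and none had the reverse, against 13.4% (27.1% for both directions).

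Elf4 (MEF), the third relative, had 1139, 1290.0 and 1212 normalized counts in the scurfy group, and 1102, 1167 and 1012 in the wild-type group. The groups overlapped, at means of 1214 ± 75.3 and 1094 ± 77.8 (SD, n = 3 each). Its log2 fold change of 0.15 had a 95% interval of -0.09 to 0.39.

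Ets2, the paralogue of Ets1, overlapped between groups, with means of 249 ± 45.9 normalized counts for scurfy and 238 ± 46.3 for wild type (SD, n = 3 each). Its libraries ran from 185 to 301, the lowest being wild-type 3 and the highest scurfy 2. The log2 fold change was 0.07 with a 95% interval of -0.36 to 0.51, so falls as large as that of Ets1 lie outside the interval. It was below 0 on library size alone (-0.06), without scurfy 2 (-0.07) and without wild-type 3 (-0.10).

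The ternary complex factors Elk3 and Elk4 did not pass. Elk3 had 461, 423 and 514 normalized counts in the scurfy group and 461, 562 and 558 in the wild-type group (log2 fold change -0.18, 95% interval -0.48 to 0.13). Elk4 was at 1467 ± 147 and 1414 ± 168 (SD, n = 3 each), with the lowest value of each group in library 1 and a log2 fold change of 0.05 (95% interval -0.21 to 0.32). Its sign was negative on library size alone (-0.08) and without wild-type 1 (-0.05). Cdk17, a kinase gene that overlaps Elk3 on the opposite strand in GENCODE M21, fell from 576.9, 649 and 705 in wild-type libraries to 435, 373 and 384 under scurfy (limma adjusted p = 0.0166), a call lost without scurfy 2, wild-type 2 or wild-type 3 (up to 0.0721). The sources used here do not state a strand setting, so it is unknown whether reads were told apart where the 2 genes overlap.

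Etv3, a repressor of proliferation genes in mouse macrophages, and Gabpa did not pass either. Etv3 had 333, 332 and 365 normalized counts in the scurfy group and 451, 469.8 and 335 in the wild-type group, where wild-type 3 lay among the scurfy values. Its log2 fold change was -0.27 (95% interval -0.62 to 0.08). Gabpa had 534.0, 558 and 664 normalized counts in the scurfy group and 609, 716 and 705 in the wild-type group, overlapping through scurfy 3 (log2 fold change -0.21, 95% interval -0.50 to 0.08). Atp5j, an ATP synthase subunit gene that overlaps Gabpa head to head on the other strand, was at 0.31 and did not pass (limma adjusted p = 0.145).

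**Figure D2:**
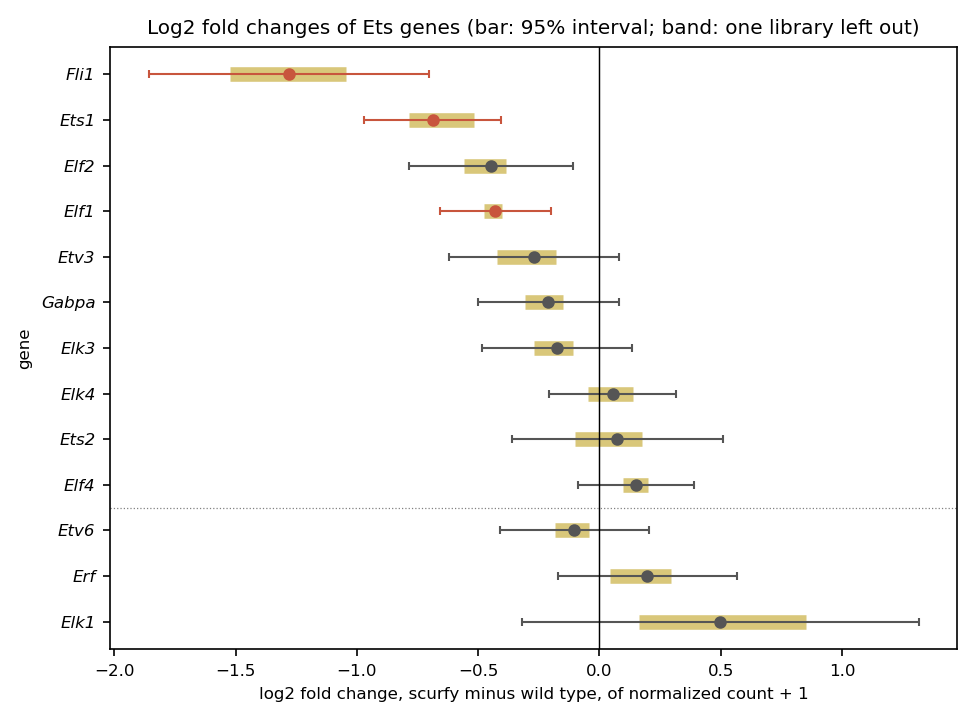
Log2 fold changes, scurfy minus wild type on the log2(normalized count + 1) scale (x axis), of the 10 listed genes above the dotted line and 3 other Ets genes below it. Points are limma estimates with 95% intervals, red where the adjusted p is under 0.05, and bands span the 6 refits that leave out 1 library. Fli1 (-1.28), Ets1 (-0.69) and Elf1 (-0.43) are red, and the Elf2 interval (-0.79 to -0.11) also lies below 0.

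Other Ets genes with a row numbered 3 of 17 listed, and none passed in limma, edgeR or DESeq2, nor had an unadjusted limma p under 0.05 (0 genes). For the other 14 the level is unknown, because low genes had been filtered out of the table by a rule the sources used here do not give. The repressor Etv6 had means of 410.4 ± 14.7 normalized counts for scurfy and 442 ± 43.7 for wild type (SD, n = 3 each). Erf, a repressor controlled by ERK, was at 391 ± 48.6 and 343 ± 61.1. Elk1, the third ternary complex factor, was at 79.6 ± 30.6 and 57.9 ± 27.9, the widest interval of the family (log2 fold change 0.50, 95% interval -0.32 to 1.32).

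Per kilobase of exon, which does not correct for reads drawn from the 3′ end, Ets1 stood far above the other members. Its wild-type level was 1214 ± 62.5 normalized counts per kilobase (SD, n = 3). Elf1 (233), Elk4 (221) and Elf4 (178) followed, with overlapping libraries for Elf1 and Elk4. Gabpa (119), Elk3 (116) and Fli1 (76.1 ± 22.9) formed a chain in which each overlapped the next. Ets2, Etv3 and Elf2 were lowest, at 40.4 to 41.1, and overlapped one another. In scurfy libraries Ets1 was still first, at 763 ± 146 per kilobase. Elf1 moved from rank 2 to rank 4 at 173, below Elf4 (197) with no overlap. Fli1 moved from rank 7 to rank 9 at 31.4 ± 10.4. Its scurfy libraries (21.7 to 42.4) overlapped those of Ets2, Etv3 and Elf2, so its order among these genes is not settled.

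Ets1 gave 58.6% to 62.8% of the summed normalized counts of the 10 genes in wild-type libraries and 45.5% to 56.9% in scurfy libraries. Each scurfy library had 7 to 9 of the 10 genes below the wild-type mean, and the wild-type libraries, which make that mean, had 3 to 5. The sum without Ets1 was 5535 to 6063 in scurfy and 6407 to 6884 in wild-type libraries. So the groups were apart with and without the most abundant gene. The sum without Ets1 still holds Fli1, Elf1 and Elf2, whose groups did not overlap singly, so it does not speak for the other 6 genes.

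Ratios between related genes within a library depend on library scaling only through the added pseudocount of 1, and 5 were taken. These pairs were chosen after the values had been seen, so their p-values are descriptive. The log2 ratio of Elf1 to Elf4 was -0.01, -0.09 and -0.07 in scurfy and 0.56, 0.47 and 0.53 in wild-type libraries, a difference of -0.58. The groups were far apart beside their SDs of 0.038 and 0.046. The ratio of Ets1 to Ets2 differed by -0.76, with means of 5.45 ± 0.36 for wild type and 4.69 ± 0.25 for scurfy (SD, n = 3 each). For Fli1 to Ets1 the difference was -0.59, with libraries from -6.06 to -5.62 in scurfy and from -5.55 to -4.85 in wild type, so Fli1 was lower relative to Ets1 as well. Elk3 to Elk4 differed by -0.23. For Elf1 to Elf2 the groups overlapped and the difference was 0.02. The two-sided exact permutation p was 0.1 for the first 4 pairs named, the smallest that 3 against 3 allows, and 0.8 for Elf1 to Elf2 (0.125 and 0.8 after Benjamini-Hochberg adjustment over 5 pairs).

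**Figure D3:**
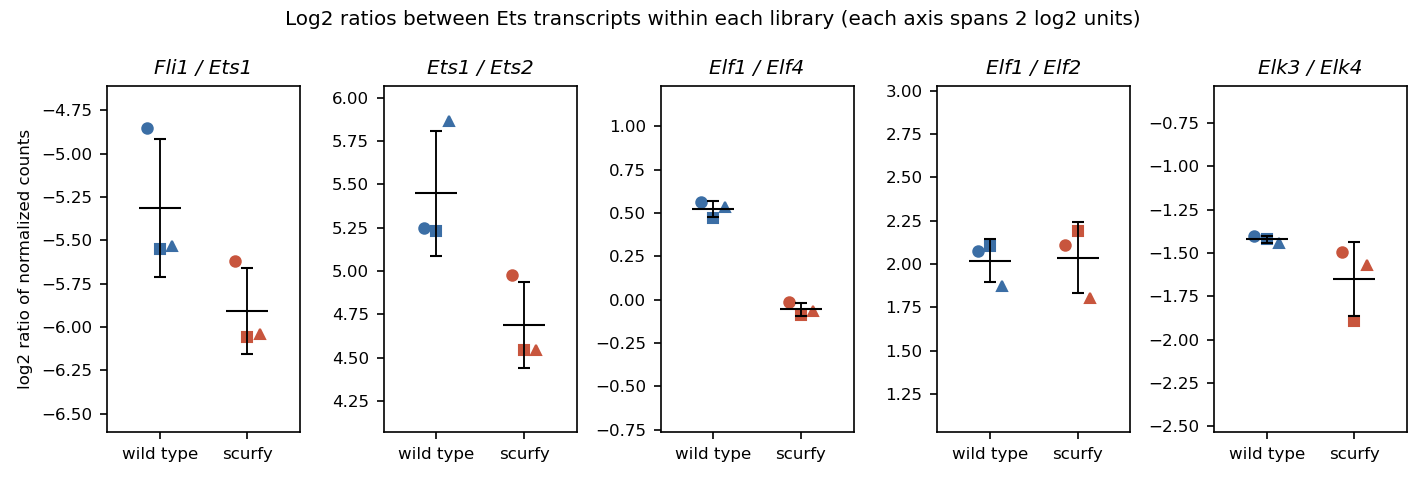
Log2 ratio of normalized counts of 2 Ets genes within each library (y axis), 1 point per library with mean and SD as bars. Scurfy points lie below all wild-type points for Fli1/Ets1, Ets1/Ets2, Elf1/Elf4 and Elk3/Elk4, and the groups overlap for Elf1/Elf2.

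The genes whose pattern over the 6 libraries was nearest to Fli1 were Cpeb4, Fbxo11, Mex3b, Naa30 and Yam1, among 9187 other genes with a mean of at least 50 normalized counts. Nearness was the root mean square difference of centred log2 values, which was 0.16 for Cpeb4, an RNA-binding regulator of polyadenylation and translation, and 0.20 for Fbxo11, a ubiquitin ligase subunit. It was 0.23 for the RNA-binding protein gene Mex3b, 0.25 for the acetyltransferase gene Naa30 and 0.25 for the non-coding Yam1 (Gm42418 in GENCODE M21). Cpeb4, the nearest, had 56.9, 48.8 and 24.8 normalized counts in the scurfy group and 130.3, 72.0 and 98.2 in the wild-type group. Among the Ets genes Ets1 was nearest to Fli1 (rank 140, 0.40), and Elf1 next (rank 920, 0.56). With only 6 libraries, such likeness describes these samples.

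Exonic length moved with genotype across the table, and the Ets genes are long. Their median exonic length was 6277.5 bases against 4075 over all genes. Genes with 4000 to 10000 bases, the range of 8 of the 10, had their median log2 fold change at -0.04, and 140 of 4895 fell. Above 4000 bases 3.11% of all genes fell, and of the 9 Ets genes there 2 did, Ets1 and Elf1. Genes with 3000 to 4000 bases, where Fli1 lies at 3486, had a median of 0.02, and 42 of 1620 fell. With a smooth length trend removed in each library, Fli1 stayed at -1.28 (limma adjusted p = 0.0276) and Ets1 was at -0.59 (0.0338). The Elf1 value became -0.36 and no longer passed (0.0797), where 1.47% of all genes were called lower.

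**Figure D4:**
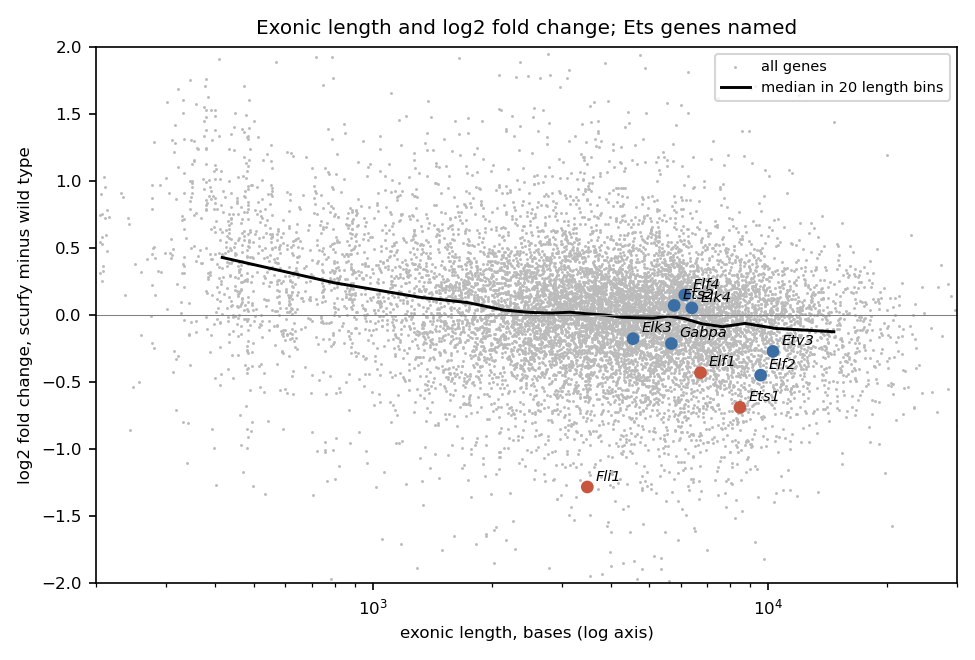
Exonic length in bases (x axis, log scale) against log2 fold change, scurfy minus wild type (y axis, drawn from -2 to 2, which leaves out 146 genes). Grey points are genes, the line joins medians of 20 length bins, and Ets genes are named, red where called. Fli1 (-1.28) and Ets1 (-0.69) lie well below the line at their length.

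Other annotated genes overlap several Ets genes. GENCODE M21 places 16 genes on top of 7 of the 10, and 7 of the 16 have a row. Within Fli1, the unclassified transcript Gm37474 ran from 10.9 to 29.6 normalized counts in the scurfy group and from 15.9 to 67.8 in the wild-type group, overlapping through wild-type 3. Its log2 fold change was -0.96, in the same direction as that of Fli1, and did not pass (95% interval -2.15 to 0.22, limma adjusted p = 0.337). The small nuclear RNA Gm22060, also within Fli1, was at 0.39 on the log2 fold change scale and did not pass (adjusted p = 0.696). Wbp4, which overlaps Elf1 on the opposite strand, was at 0.29 (adjusted p = 0.330).

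Of 18 Ets cofactor genes 15 had a row, and Cbfb, the subunit that stabilises Runx factors on DNA, was the 1 that fell, where 2.35% of all genes were lower. It had 248, 277 and 212 normalized counts in the scurfy group and 420.04, 353 and 488 in the wild-type group, with no overlap (log2 fold change -0.77, SE 0.18, limma adjusted p = 0.0259). That call ended without scurfy 1 (0.0501), scurfy 3 (0.0708), wild-type 1 (0.0675) or wild-type 3 (0.105). The other 14 did not pass, the median of the 15 was -0.18, and DESeq2 on recovered reads called 2 lower, where it called 4.76% of all genes lower.

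In the Ras-ERK pathway, which phosphorylates several Ets factors, 28 of 30 genes had a row, 2 fell, where 2.35% of all genes were lower, and 26 did not pass (median -0.08). Rasgrp1, which activates Ras downstream of the T cell receptor, had 1557, 1353 and 1029.6 normalized counts in the scurfy group and 1708, 2266 and 2218 in the wild-type group, without overlap. Its log2 fold change was -0.66 (limma adjusted p = 0.0268), lost without scurfy 2 (0.0631), scurfy 3 (0.0681), wild-type 2 (0.101) or wild-type 3 (0.0937). Rasa1, which switches Ras off, fell by 0.72 on the log2 scale (adjusted p = 0.0473), a call lost with any 1 library left out (0.0549 to 0.144) and with the length trend removed (0.0865). The members that fell thus include an activator and an inhibitor of Ras. DESeq2 on recovered reads called the same 2 lower and 1 of the list higher, where it called 476 genes lower and 415 higher in all.

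Lists of genes described as controlled by Ets factors were also counted. Of 11 targets of ternary complex factors and serum response factor none passed in limma, edgeR called 0 and DESeq2 called 1 (median -0.04). An unadjusted limma p under 0.05 was found for 3 of the 11, and for 2456 of 11581 genes in the whole table, so that count is near the background. Junb had the smallest p, at -0.71 (limma adjusted p = 0.0697). Of 17 T cell genes with described Ets control 1 passed, where 4.47% of all genes did in either direction and 2.12% were higher. The adhesion receptor gene Cd2 rose by 0.43 (adjusted p = 0.0376), a call lost with any 1 library left out (0.0532 to 0.129), on library size alone (0.0990) and with the length trend removed (0.0991). The median of the 17 was -0.07. DESeq2 on recovered reads called 1 of them higher and 1 lower, where it called 415 genes higher and 476 lower in all.

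Of 16 respiratory genes known as GABP targets 5 rose, none fell and 11 did not pass, against 2.12% of all genes higher. The cytochrome oxidase subunits Cox6b1 (0.96), Cox7a2 (1.30), Cox6c (1.18) and Cox7c (0.45) were among those that rose, while Gabpa itself was at -0.21. Over all 16 targets the log2 fold changes ran from -0.13 to 1.49. Their median exonic length was 1844 bases. With the length trend removed 3 rose and Cox7c was not among them (limma adjusted p = 0.177). Also 3 rose without scurfy 2, scurfy 3, wild-type 1 or wild-type 2, and Cox7c lost its call with any 1 library left out (0.0599 to 0.120) and on library size alone (0.0984).

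Table genes with CCGGAA in a promoter window numbered 2769 of the 7915 that matched a window by symbol. Their median log2 fold change was 0.01, against -0.01 for the 5146 without it, and 2.35% of them fell against 2.66%. The share that rose was 2.56% with the core and 1.52% without it. Median exonic lengths were 4322 and 4586 bases, and the part of length in these shares was not tested.

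B cells, platelets and endothelial cells also express several Ets genes, Fli1 among them. Of 12 B cell markers 7 had a row and all 7 had negative log2 fold changes. Their summed level was 9895 to 11352 normalized counts in scurfy and 10971 to 11753 in wild-type libraries, most of it Ighm. Without Ighm the sum was 309 to 391 in scurfy and 495 to 549 in wild-type libraries, so that sum moved with genotype. Its 6 genes did not do so alike. H2-Aa, H2-Ab1, H2-Eb1 and Cd74, of the MHC class II pathway, had no overlap between groups. They rest on few reads per library: 0 to 174 for H2-Aa, 0 to 38 for H2-Ab1, 1 to 44 for H2-Eb1 and 12 to 67 for Cd74. Cd79b (136 in scurfy, 166 in wild type) and Ighd (195 and 215) overlapped and did not pass. Neither did Ighm, outside this sum, which also overlapped (10309 and 10862). H2-Aa was the marker that fell, from 71.7 to 6.82, a call lost without wild-type 2 or wild-type 3 (up to 0.0706). Of 6 platelet markers only Itga2b had a row, at 88.9 in scurfy and 82.0 in wild type, and of 6 endothelial markers only Pecam1, at 1349 and 1131, which CD8 T cells also express. The erythroid marker Car2 fell from 283 to 130.2, a call lost without wild-type 3 (0.0645). The myeloid marker Cst3 rose from 974 to 1454, a call lost without scurfy 2, scurfy 3 or wild-type 2 (up to 0.0815). Each was the 1 marker of its list with a row, of 7 erythroid and 10 myeloid markers. Of 5 natural killer markers only Eomes had a row, and it did not pass. Of the CD8 T cell markers, Cd3d rose by 0.76 on the log2 scale and the other 7 did not pass. The part of these markers, and of the higher CD8 T cell marker sum, in the lower Fli1, Ets1 and Elf1 was not tested.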

How the data were processed

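Polyadenylated RNA of purified CD8 T cells was reverse transcribed from oligo-dT primers, amplified by in vitro transcription and sequenced on a NextSeq, per the labels' protocols. Trim Galore 0.4.4, STAR 2.6, featureCounts, edgeR, DESeq2 and build NCBIM37 are named per the submitters' processing notes, without roles. The 2 deposited tables are identical and name the 6 unstimulated libraries, so the stimulated ones were not analysed here.

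The deposited signal behaves as reads over a scaling factor of each library, judged from its values and from column names typical of DESeq2 output. Within 0.01 read, 100% of nonzero values were whole reads, and 3 reads correspond to 1.45 to 3.99 normalized counts. The authors' deposited comparison gives log2 fold changes, a score (fold change over standard error) and p-values, per the file headers, used here only where named. In wild-type library 2 the smallest value is 2 reads, so its step was taken from the gap between values. Libraries of a group differed by 6.77 to 32.4 times the sampling variance. The smallest mean in the table is 7.10.

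The main test, run in R 4.3.3, was limma 3.58.1 applied to log2(value + 1), planned for normalized values, with a variance trend, robust moderation and Benjamini-Hochberg adjustment over 11581 genes at 0.05, with no covariate. It was tested on simulated counts that held no length trend and no error of library scaling, so that run does not cover either. Fold changes are scurfy minus wild type and understate changes of low genes. Alternatives used edgeR 4.0.16, DESeq2 1.42.0, other scalings, pseudocounts, a filter at a mean of 50, each library left out, a replicate term and removal of a length trend (lowess, span 0.3). Lengths and overlaps come from GENCODE M21 (11571 IDs matched), whose build, GRCm38, differs from the submitters'. Exact permutation tests used scipy 1.17.1.

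The members and lists were chosen with earlier results of these data known, and the 5 ratio pairs after the values had been seen. Named are all Ets genes with a row, up to 4 genes past the threshold per list by p (or the smallest p), and the 5 genes nearest to Fli1. Cdk17, Atp5j, Wbp4, Gm37474, Gm22060 and the marker genes were named outside that rule. A planned comparison of proteins was not made.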

Additional observations from a re-analysis of the deposited data

How the results depend on the processing

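All 10 Ets genes kept their direction under the 15 alternatives, except Ets2 (library size -0.063, without scurfy library 2 -0.071, without wild-type library 3 -0.099, range -0.099 to 0.17 with 1 library left out) and Elk4 (library size -0.082, without wild-type library 1 -0.049, range -0.049 to 0.14), neither of them called. Fli1 and Ets1 kept their calls under every alternative that used all 6 libraries. Elf1 lost its call with the length trend removed and with a replicate block, and Elf2 gained one on library size alone (adjusted p = 0.0414). The count of called members ran from 0 (without wild-type library 3) to 2 when 1 library was left out, being 1 without scurfy library 2, scurfy library 3 or wild-type library 1. Their median log2 fold change was -0.38 on library size, which lowered the median of all genes by 0.14, and otherwise -0.31 to -0.16. Over all genes the count of 518 was 930 on library size (169 higher and 761 lower), 891 with DESeq2 on recovered reads and 302 with the length trend removed. It ran from 113 to 403 with 1 library left out: 113 without wild-type library 3, 215 without wild-type 2, 306 without wild-type 1, 221 without scurfy 2 and 230 without scurfy 3. Same-numbered libraries did not deviate together (correlations across genes of 0.01, -0.04 and -0.07), so the numbers were not taken as pairs. The replicate block gave 372 calls in all and 2 among the members (Elf1 adjusted p = 0.0670), and 3 GABP targets rose with it. Among the called members Fli1 rests on the fewest reads, 64 in its lowest library.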
